A study of Mus musculus with 28 samples.

Results

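The tripartite motif (TRIM) genes of the mouse were followed in bone marrow-derived macrophages (BMM), primary phagocytes grown from marrow. The members were all genes in 2 count tables whose symbol is Trim followed by a digit, with pseudogenes left out, which gave 68 of the 56951 genes in either table. Of these, 43 passed a filter on low counts and were tested, and the same 43 passed in both experiments. Messenger RNA was sequenced from 28 libraries in 7 groups of 4. In the first experiment, read for 100 cycles, the groups were Irgm_IFNAR-KO (without Irgm1 and without IFNAR, the receptor for type I interferon), Irgm1-KO (lacking Irgm1) and WT. In the second, read for 50 cycles, they were Irgm1KO_fenofibrate, Irgm1KO_control, WT_fenofibrate and WT_control, with fenofibrate at 50 µM. Fenofibrate, prescribed against high blood lipids, is an agonist of the nuclear receptor PPAR alpha. The mutant mice were backcrossed to C57BL/6, which was the wild type, and marrow came from males and females 2 to 4 months old. Cells were kept without L929-conditioned medium (a source of macrophage growth factor) for the last day before use. The sources used here do not give the time of exposure to fenofibrate or the treatment of control cells. No group lacks IFNAR alone, so an effect of receptor loss and one that depends on the loss of Irgm1 cannot be told apart. Whether the libraries of a group came from different mice is not in the labels, so p-values measure library-to-library spread, which in the first experiment may be technical. In the second, each group held libraries with the male and with the female pattern of Xist and Ddx3y, so its libraries came from more than 1 mouse.

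Most TRIM proteins carry a RING finger, B-boxes and a coiled coil and act as ubiquitin ligases, but some members lack the RING finger. Many are made in response to interferon and act in antiviral defence: some bind incoming virus capsids, others attach ubiquitin to sensors of foreign nucleic acid or to their adaptors. Irgm1 is an interferon-induced GTPase of macrophages that acts in autophagy and in the upkeep of mitochondria, and the study asked which transcriptional changes follow its loss and which of them need type I interferon signalling.

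Type I interferon acts on genes through the interferon-stimulated response element (ISRE), bound by STAT and IRF factors, so the promoters were searched on both strands for its core, 2 copies of GAAA with any 2 bases between them. RefSeq promoters (build GRCm38.p6, 250 bases before to 50 after the start site) were found for 53 of the 68 members and for 33 of the 43 tested ones. The core was present in 9 of the 33, against 3.99% of 27025 genes with a promoter. It was found in 5 of the 12 members with a promoter among the 16 that rose without Irgm1 in both experiments, and in 4 of the other 21. The windows below are shown because they hold every match among the tested members, some of which rose without Irgm1 and some of which did not. Each is written 5′ to 3′ on the gene's strand, with the matching letters in capitals.
Trim30a: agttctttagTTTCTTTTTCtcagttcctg
Trim30a, a further start site: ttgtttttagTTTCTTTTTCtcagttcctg
Trim30d: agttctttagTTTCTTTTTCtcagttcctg
Trim34a: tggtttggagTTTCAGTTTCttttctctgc
Trim21: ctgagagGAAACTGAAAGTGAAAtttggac
Trim26: cttccgaTTTCACTTTCCTTTTCtcgggcc
Trim12a: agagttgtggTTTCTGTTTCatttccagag
Trim5: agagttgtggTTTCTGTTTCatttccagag
Trim12c: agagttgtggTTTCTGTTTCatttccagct
Trim2: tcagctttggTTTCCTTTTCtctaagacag

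The window of Trim30a lies at chr7:104465210-104465239 on the minus strand, with the match starting 36 bases before the start site, and that of Trim30d at chr7:104507871-104507900, also minus, with the match starting 41 bases before it. Over 60 bases around the match, the promoters of Trim30a and Trim30d differed at 1 base. The Trim5 window (chr7:104288136-104288165, minus) and the Trim12a window (chr7:104315466-104315495, minus) did not differ over the same 60 bases, and each differed from the Trim12c window (chr7:104353359-104353388, minus) at 3. The Trim34a window is at chr7:104244457-104244486 on the plus strand and the Trim21 window at chr7:102565447-102565476 on the minus strand, and both matches begin after the start site. The Trim26 window is at chr17:36836979-36837008 on the plus strand, and the Trim2 window at chr3:84212791-84212820 on the minus strand. Trim2 had further promoters without a match. Trim21 and Trim26 each held 2 overlapping matches. Trim25, Trim30b, Trim30c, Trim34b, Trim6, Trim46 and Trim72 had a promoter in the table and no match in it. The interferon-gamma element, letters TTCNNNGAA, stood in 3 of the 33 tested members with a promoter, against 9.55% of all genes.

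Each of the 12 libraries of the first experiment held 48.7 to 70.5 M counts, and each of the 16 of the second held 82.4 to 121 M. Levels are given in CPM, counts scaled to a common library total. Irgm1 transcript was 641 to 786 CPM in Irgm_IFNAR-KO, 628 to 839 in Irgm1-KO and 1190 to 1350 in WT, and 991 to 1140 CPM in the 8 Irgm1KO libraries of the second experiment against 1470 to 1670 in the 8 WT libraries. The ranges of mutant and WT libraries did not overlap, and reads of Irgm1 remained in every mutant library. Ifnar1 was at 53.1 to 114 CPM in Irgm_IFNAR-KO, 112 to 127 in Irgm1-KO and 128 to 141 in WT and was not called in any comparison of the first experiment. The sources used here do not say which part of either gene the alleles remove. Irf7, a master interferon-response gene, was at 25.6 to 32.9 CPM in Irgm_IFNAR-KO, 2240 to 3000 in Irgm1-KO and 360 to 612 in WT. All 9 macrophage markers were above 1 CPM in every group, and their sum was 29000 to 40200 CPM in Irgm_IFNAR-KO, 9700 to 14800 in Irgm1-KO and 21500 to 41700 in WT. Lyz2, one of them, was at 22300 to 34000, 3710 to 8810 and 14500 to 35300 CPM in the same groups. The 8 of 10 neutrophil markers with a row in the first table summed to 16.1 to 26.1, 5.69 to 9.76 and 16.3 to 40.9 CPM in the same groups. The 3 endothelial markers summed to 10.2 to 15.2 CPM in Irgm_IFNAR-KO, 113 to 199 in Irgm1-KO and 22.8 to 32.7 in WT. Among them Kdr was higher in Irgm1-KO than in WT, Pecam1 was lower (3.03 to 3.49 CPM against 9.99 to 15.8), and Cdh5 was at 0.505 CPM or less. The 5 dendritic cell markers with a row summed to 57.7 to 65.7, 21.6 to 26.0 and 46.0 to 54.3 CPM. B cell, fibroblast and mast cell markers summed to at most 1.88 CPM in any library, and the 5 T and NK cell markers, measured in the second experiment, to at most 0.0313. The part of these markers in the Trim results was not tested. In bulk RNA, fewer cells of a type and less RNA per cell cannot be told apart. All libraries of the first experiment had Xist at 50.8 CPM or more. In the second, replicates 2 and 4 of both WT groups and replicate 3 of both Irgm1KO groups had Xist at 1.78 CPM or less and Ddx3y at 50.2 or more, the pattern of male cells.

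The summed level of the family was highest in Irgm1-KO and Irgm1KO_control and lowest in Irgm_IFNAR-KO. The CPM of the 43 members summed to 1472 ± 63.2 in Irgm_IFNAR-KO, 3153 ± 140 in Irgm1-KO and 1838 ± 153 in WT (SD, n = 4 each). In the second experiment the sum was 1914 ± 83.7 in Irgm1KO_fenofibrate, 2905 ± 77.2 in Irgm1KO_control, 1765 ± 67.8 in WT_fenofibrate and 1870 ± 65.6 in WT_control. The Irgm1-KO and Irgm1KO_control libraries, at 2840 or more, stood above all other libraries, of which the highest was at 2004. Trim30a and Trim25 together made up 44.2% of the family's CPM in Irgm1-KO and 25.4% in Irgm_IFNAR-KO. Per kilobase of exon, Trim30a ranked first and Trim25 second in all 7 groups, with Trim30a at 42.4, 204 and 96.3 CPM per kilobase in Irgm_IFNAR-KO, Irgm1-KO and WT, and Trim25 at 34.6, 96.7 and 42.2. At the low end, Trim17, Trim7, Trim34b, Trim2 and Trim72 were below 0.4 CPM per kilobase in every group.

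**Figure D1:**
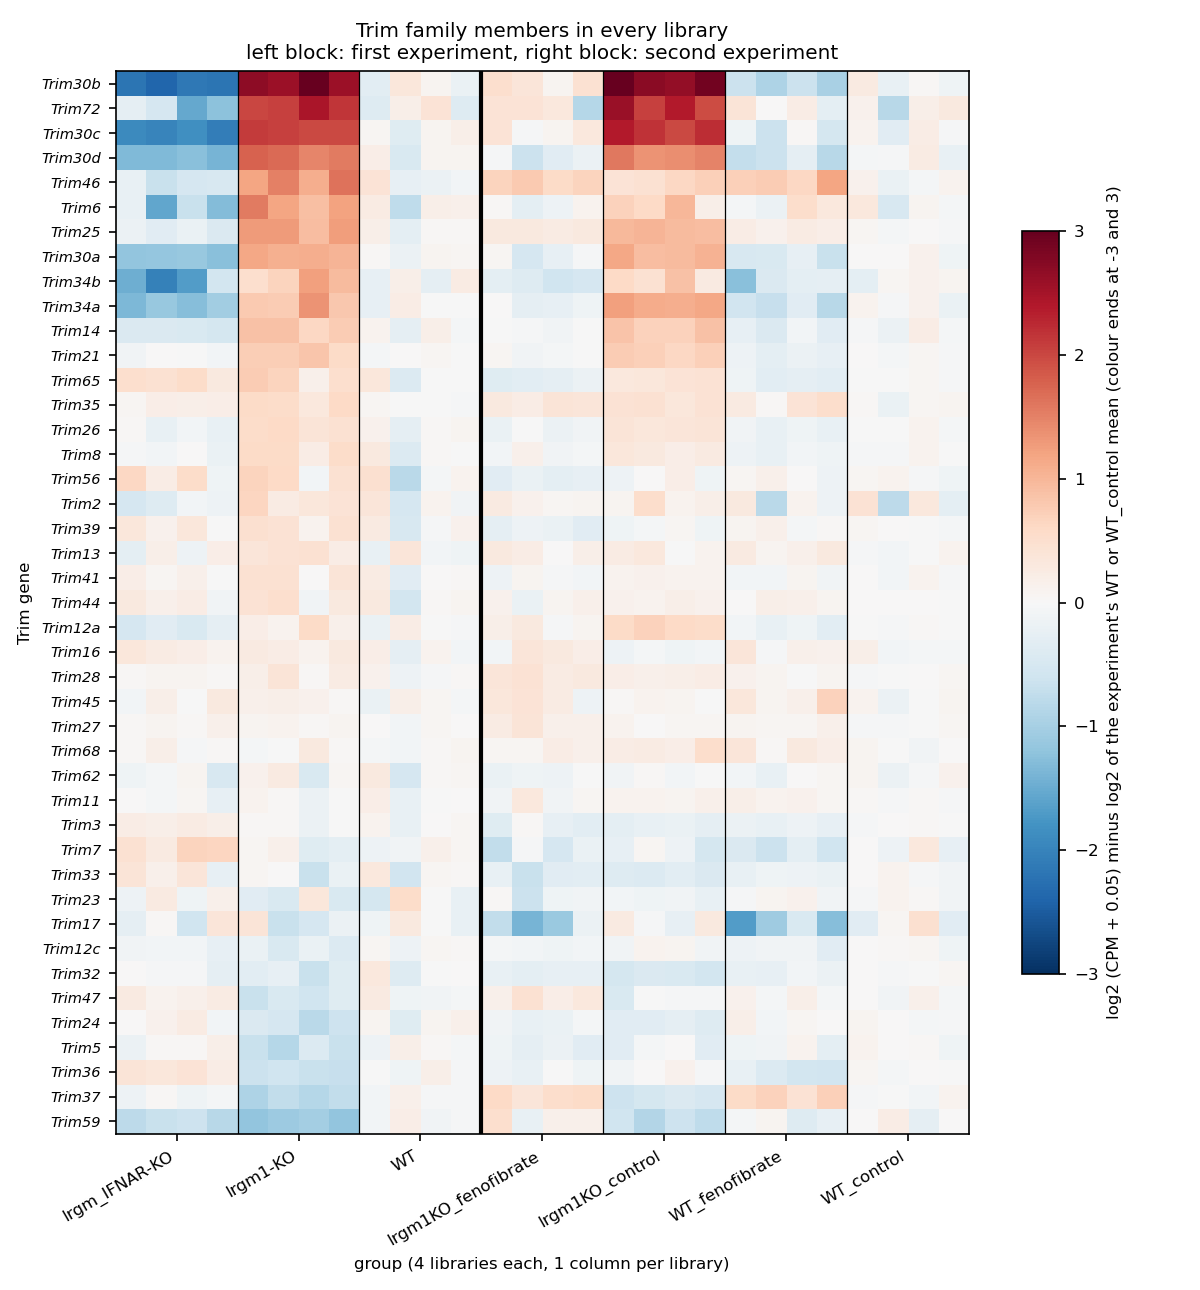
Each row is 1 of the 43 tested Trim genes, ordered by log2 fold change in Irgm1-KO over WT, and each column is 1 library; colour gives log2(CPM + 0.05) minus the log2 mean of WT (first 12 columns) or WT_control (last 16 columns). Trim30b at the top is red in the Irgm1-KO and Irgm1KO_control columns and blue in the Irgm_IFNAR-KO columns, and Trim59 at the bottom is blue in all 3 of these groups.

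Loss of Irgm1 raised the Trim30 genes, Trim34a, Trim25, Trim14 and Trim21 in both experiments and lowered Trim59, Trim37 and Trim24. Trim32 was lower in both as well, but in the first experiment its ranges overlapped and its adjusted p was 0.0486. In the first experiment 16 of the 43 members rose and 8 fell in Irgm1-KO against WT, where 40.4% of the 13998 genes tested were called, 19.8% up and 20.7% down. In the second, 19 rose and 6 fell in Irgm1KO_control against WT_control, where 53.4% of the 15429 genes tested were called, 27.3% up and 26.1% down. Called here means a Benjamini-Hochberg adjusted p below 0.05, over all genes, in edgeR's quasi-likelihood test. The experiments share no libraries. All 16 members that rose in the first rose in the second (84.2% of the 19 there). Of the 8 that fell in the first, 4 fell in the second (66.7% of the 6 there). No member was called in opposite directions. The share of all genes called alike in both experiments was not counted, so this overlap has no background to compare with. The median log2 fold change over the 43 was 0.30 in the first and 0.13 in the second, against -0.0188 and 0.00346 over all genes.

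**Figure D2:**
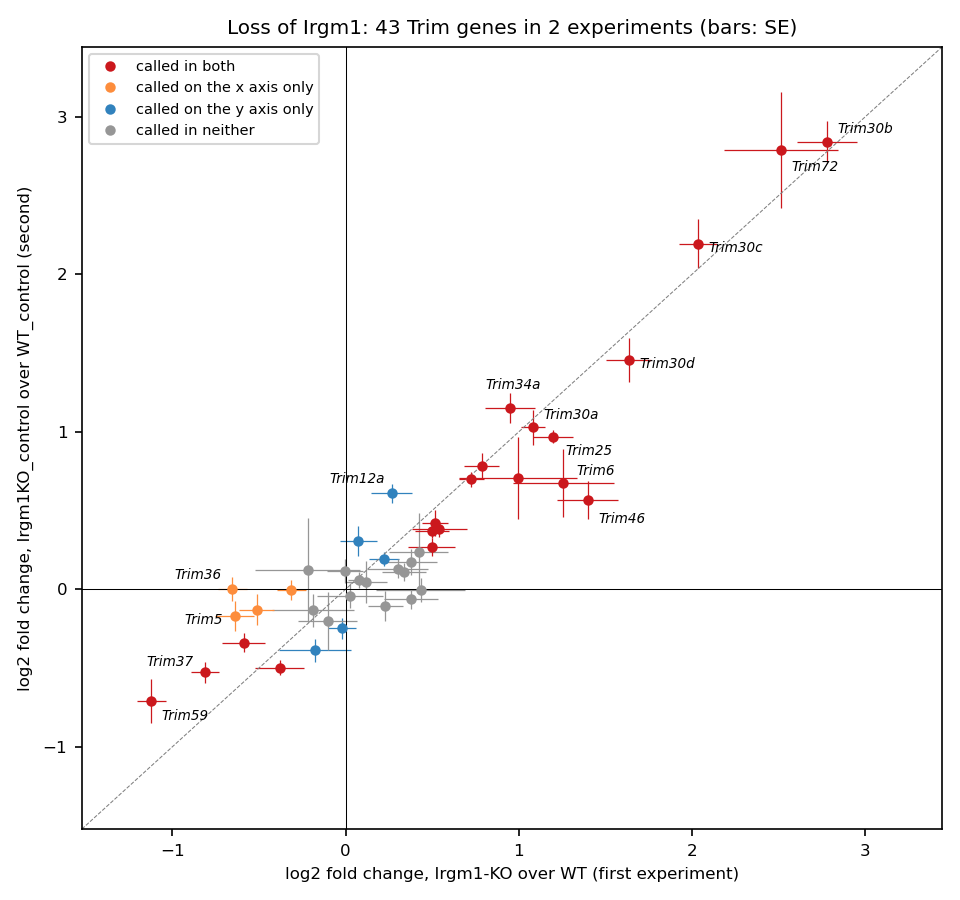
Each point is 1 of 43 Trim genes, with its log2 fold change in Irgm1-KO over WT (x axis, first experiment) and in Irgm1KO_control over WT_control (y axis, second experiment); bars are SE and the dashed line marks equal values. Trim30b lies highest at 2.78 and 2.84, and Trim59 lowest at -1.12 and -0.71.

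Many of the members that rose belong to a cluster of Trim genes on chromosome 7 that lie next to each other in the order Trim6, Trim34a, Trim5, Trim12a, Trim34b, Trim12c, Trim30b, Trim30c, Trim30a and Trim30d, with the predicted gene Gm38525 between Trim12c and Trim30b. The cluster includes the rodent relatives of primate TRIM5, which blocks incoming retrovirus capsids. Of its 10 tested members, 7 rose and 2 fell in the first experiment, and 8 rose and none fell in the second. These were 90% and 80% of the cluster, where 40.4% and 53.4% of all genes were called. Trim30a, which in mouse macrophages restrains signalling from Toll-like receptors through the adaptors TAB2 and TAB3, had 881, 825, 838 and 805 CPM in Irgm1-KO, against 403, 353, 418 and 410 CPM in WT. Every Irgm1-KO library was above every WT library, and the log2 fold change was 1.08 (SE 0.07, adjusted p = 2.31e-07). In the second experiment it had 805, 684, 696 and 741 CPM in Irgm1KO_control, against 359, 359, 390 and 325 CPM in WT_control, again without overlap (log2 fold change 1.03, SE 0.11, adjusted p = 1.16e-06).

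Trim30b, a close relative of Trim30a, changed most in log2 terms. It had 56.2, 52.3, 79.8 and 51.8 CPM in Irgm1-KO, against 7.06, 11.1, 9.26 and 7.61 CPM in WT, and 35, 28.0, 26.8 and 31.6 CPM in Irgm1KO_control, against 5.13, 3.65, 4.31 and 3.85 CPM in WT_control. No library of either mutant group came down to the WT range, and Irgm1-KO replicate 3 was above its group. The log2 fold changes were 2.78 (SE 0.17, adjusted p = 1.63e-07) and 2.84 (SE 0.13, adjusted p = 1.42e-10). Trim30c rose by 2.03 and 2.19 and Trim30d by 1.63 and 1.46 on the log2 scale in the first and second experiments. Trim30d had 255, 242, 206 and 220 CPM in Irgm1-KO, against 84.9, 54.3, 79.2 and 79.3 CPM in WT, with WT replicate 2 the lowest. Trim34a had 94.3, 92.8, 138 and 96.1 CPM in Irgm1-KO, against 46.0, 63.9, 54.4 and 54.0 CPM in WT, with the highest value in Irgm1-KO replicate 3 and no overlap (log2 fold change 0.95, SE 0.14). Its log2 fold change was 1.15 (SE 0.10) in the second experiment.

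Trim5 and Trim12c of the same cluster fell in the first experiment, and Trim12a rose in the second. Trim5 had 10.1, 8.86, 12 and 10.1 CPM in Irgm1-KO, against 14.3, 18.0, 16.3 and 15.3 CPM in WT, so it fell without overlap (log2 fold change -0.64, SE 0.11, adjusted p = 0.000589). In the second experiment its ranges overlapped and it was not called (log2 fold change -0.17, SE 0.09). Trim12c fell in the first (log2 fold change -0.31, SE 0.08, adjusted p = 0.00937) and was at -0.01 (SE 0.06) in the second. Trim12a was at 0.27 (SE 0.12, not called) in the first and rose by 0.61 (SE 0.06) in the second. Between 10.4% and 36.3% of the 50-base windows of these 3 transcripts occur in another of them or in a further gene, and 39.8% of Trim34a and 56.8% of Trim34b windows are shared between that pair. Reads of these genes may have been split by the counting, so their values are uncertain. Shares were 7.49% or less for the Trim30 genes. Trim6, whose human counterpart makes ubiquitin chains that activate the kinase IKK epsilon, was low, with 2.70, 2.07, 1.71 and 2.10 CPM in Irgm1-KO against 1.06, 0.50, 1.00 and 0.988 CPM in WT, and rose in both experiments.

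Among Trim regulators of nucleic acid sensing and cytokine signalling, 7 of 15 tested (of 22 listed) rose in the first experiment and 8 in the second, and none fell. The shares called, 46.7% and 53.3%, were near those of all genes, 40.4% and 53.4%. Of all genes, 19.8% and 27.3% rose and 20.7% and 26.1% fell. Trim25, a ligase that activates the RNA sensor RIG-I, had 592, 593, 463 and 578 CPM in Irgm1-KO, against 276, 199, 248 and 249 CPM in WT. All Irgm1-KO libraries were above the WT range, with replicate 3 the lowest of them (log2 fold change 1.20, SE 0.12, adjusted p = 6.23e-06). In the second experiment Trim25 had 498, 519, 496 and 485 CPM in Irgm1KO_control, against 265, 247, 258 and 251 CPM in WT_control (log2 fold change 0.97, SE 0.04). Trim21, the cytosolic receptor for antibody-coated viruses, had 145, 146, 156 and 130 CPM in Irgm1-KO, against 84.1, 87.5, 90.4 and 86.9 CPM in WT, with no overlap. Its log2 fold changes were 0.73 (SE 0.07) and 0.70 (SE 0.05). Trim14, which sits on mitochondria with the RIG-I adaptor MAVS, had 98.2, 98.0, 82.0 and 90.0 CPM in Irgm1-KO, against 57.9, 44.0, 60.6 and 51.1 CPM in WT (log2 fold change 0.79, SE 0.10), and the groups did not overlap. It rose by 0.78 in the second experiment.

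Trim26, reported to mark nuclear IRF3 for degradation, rose by 0.50 and 0.37 on the log2 scale in the first and second experiments. Trim8, a regulator of cytokine signalling, rose by 0.50 and 0.27, and Trim35 by 0.51 and 0.42. Trim65, a ligase of the RNA sensor MDA5, rose by 0.54 and 0.38. Trim56, reported to act on STING and cGAS, was not called: it had 80.8, 77.1, 48.1 and 70.2 CPM in Irgm1-KO, against 71.1, 29.4, 49.1 and 55.0 CPM in WT, ranges that overlapped widely. Trim13 and Trim27 were not called in either experiment. Trim28 and Trim68 passed the threshold in the second experiment (log2 fold changes 0.19 and 0.31) and not in the first (0.22 and 0.07), and the difference between experiments was not tested. Trim65 and Trim47 overlap in their exons, so reads of either may have been assigned to the other.

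Outside these groups, Trim46 rose to 3.48, 4.41, 3.30 and 4.76 CPM in Irgm1-KO, against 2.02, 1.28, 1.34 and 1.42 CPM in WT. Trim46 is known for organising microtubules in the neuronal axon, and its log2 fold changes were 1.40 (SE 0.18) and 0.57 (SE 0.12). Trim72, a membrane repair protein known from muscle, rose in both experiments at a very low level. It had 35, 46, 61 and 50 counts in Irgm1-KO, against 5, 8, 12 and 7 counts in WT, and 90, 50, 58 and 37 counts in Irgm1KO_control, against 9, 2, 9 and 13 counts in WT_control. Neither pair of groups overlapped, and its log2 fold changes, 2.51 (SE 0.33) and 2.79 (SE 0.37), were the largest after those of Trim30b.

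Trim59 and Trim37 had the largest falls that both experiments share. Trim59 had 11.2, 11.8, 12.4 and 11.1 CPM in Irgm1-KO, against 23.9, 28.9, 23.7 and 24.9 CPM in WT, groups far apart (log2 fold change -1.12, SE 0.08, adjusted p = 6.65e-07). In Irgm1KO_control it had 20.6, 16.7, 20.2 and 18.1 CPM, against 31.3, 35.9, 25.5 and 31.1 CPM in WT_control (log2 fold change -0.71, SE 0.14). Trim37, a ligase of centriole assembly that also stabilises the peroxisomal import receptor PEX5, had 11.9, 13.5, 12.6 and 13.6 CPM in Irgm1-KO, against 21.3, 25.2, 22.1 and 22.2 CPM in WT, without overlap (log2 fold change -0.81, SE 0.08). It fell by 0.53 on the log2 scale in the second experiment. Of the transcriptional cofactors, Trim24 fell in both (log2 fold changes -0.59 and -0.34), Trim33 passed the threshold in the second (-0.39) and not in the first (-0.18), and Trim66 was not tested. Among the NHL-repeat genes, Trim32 was at -0.38 and -0.50 and was called in both. Trim3 fell in the second (-0.25, adjusted p = 0.00463) and was not called in the first, and Trim2 was called in neither. Trim36 and Trim47 fell in the first experiment (log2 fold changes -0.65 and -0.51) and were at 0.00 and -0.13, not called, in the second.

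A few of these calls rested on single libraries. In the first experiment the call of Trim32 (adjusted p = 0.0486) ended without any 1 of the 8 libraries other than WT replicate 2 (adjusted p from 0.0538 to 0.15). The call of Trim32 also ended with DESeq2 size factors (adjusted p = 0.0676) and with only the groups compared (adjusted p = 0.101). It ended as well without the low-count filter or the largest gene (adjusted p = 0.0539 each). That of Trim34b ended without WT replicate 1 or 3 or Irgm1-KO replicate 3 or 4 (adjusted p from 0.0683 to 0.091), and that of Trim65 without Irgm1-KO replicate 1 (adjusted p = 0.0547). In the second, the call of Trim34b ended without WT_control replicate 1 or 4 or Irgm1KO_control replicate 1 or 3 (adjusted p from 0.0504 to 0.0988), and that of Trim6 without Irgm1KO_control replicate 3 (adjusted p = 0.0535). WT replicate 2 and Irgm1-KO replicate 3 stood apart from their groups in several members; without both, 20 members rose and 8 fell in the first experiment. Among the 10 libraries of the second experiment with Xist above 10 CPM, 16 rose and 5 fell. The shares of all genes called in these refits were not counted, so the member counts have no background to compare with.

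**Figure D3:**
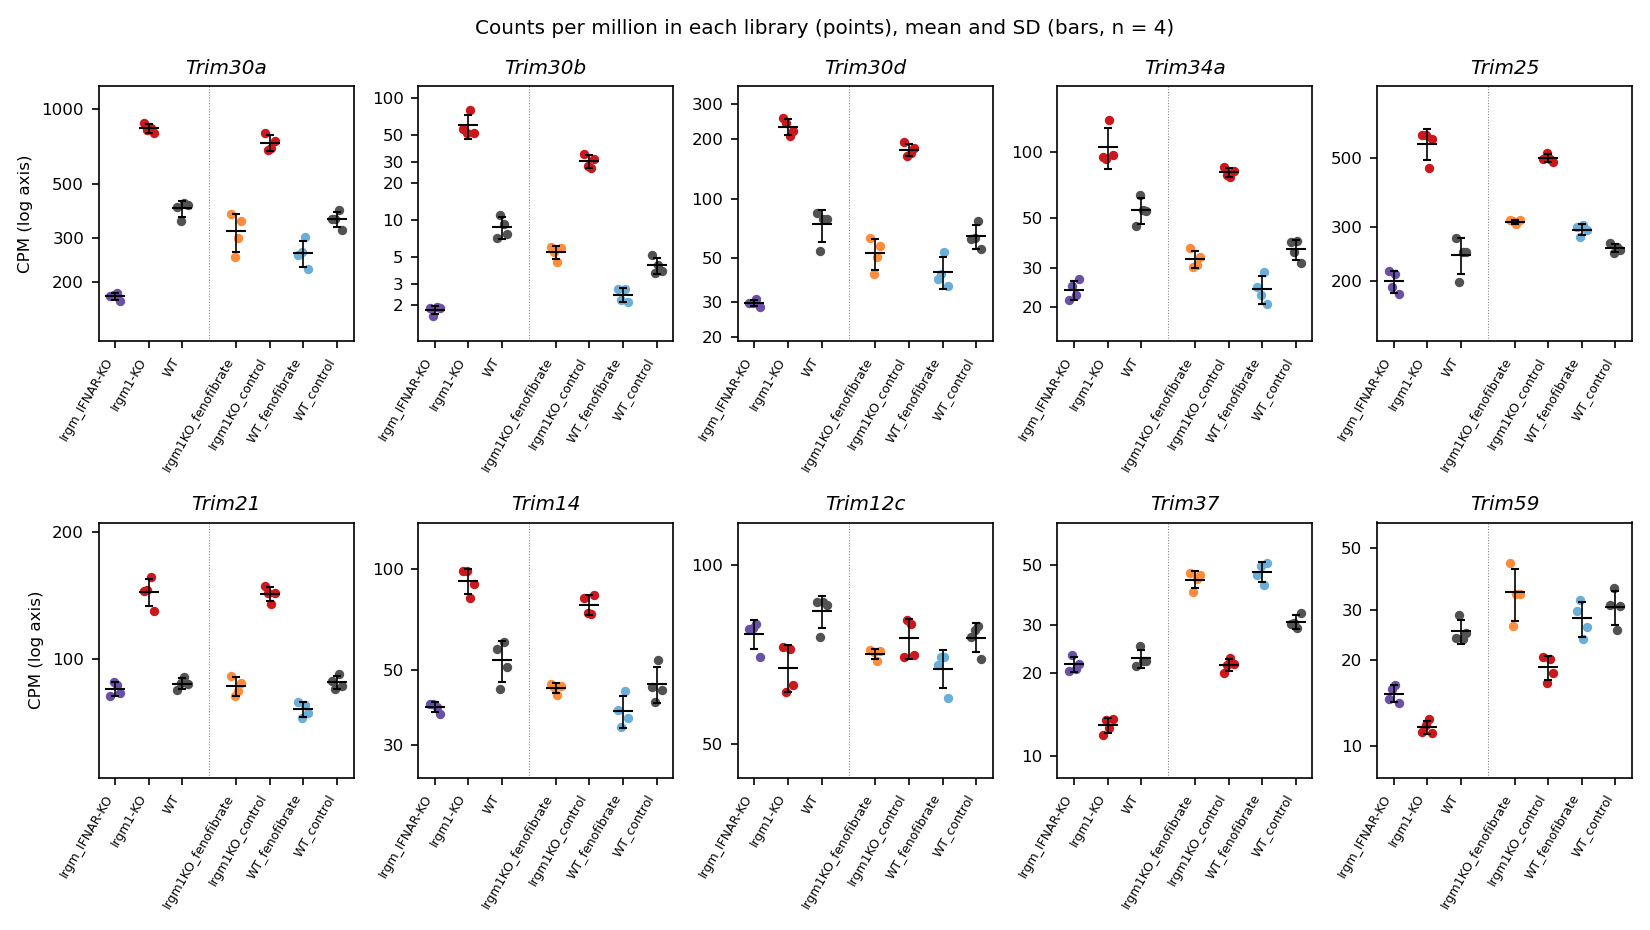
CPM (log axis) of 10 Trim genes in each library (points), with the mean and SD of each group (bars, n = 4); the dotted line separates the 2 experiments. Trim30a, Trim30b, Trim30d, Trim34a, Trim25, Trim21 and Trim14 are highest in Irgm1-KO and Irgm1KO_control, and Trim37 and Trim59 are lowest in Irgm1-KO.

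When the receptor IFNAR was also missing, the Trim30 genes, Trim34a and Trim14 fell below both Irgm1-KO and WT, Trim25 and Trim21 fell against Irgm1-KO, and Trim37 rose against it. In Irgm_IFNAR-KO against Irgm1-KO, 8 of 43 members rose and 17 fell, where 42.8% of all genes tested were called, 21.5% up and 21.3% down. The median log2 fold change of the members was -0.16, against 0.0224 over all genes. In Irgm_IFNAR-KO against WT, 1 rose and 8 fell, where 12.2% of all genes were called, 3.94% up and 8.22% down, with a median of -0.06 against 0.00776. The comparisons of this experiment share libraries, so a member's values in them are not independent.

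In the chromosome 7 cluster, 8 of 10 members fell and Trim5 rose in Irgm_IFNAR-KO against Irgm1-KO, and 6 fell against WT. These were 90% and 60% of the cluster, where 42.8% and 12.2% of all genes were called. Trim30a had 174, 177, 180 and 166 CPM in Irgm_IFNAR-KO, below the lowest WT library (353) and the lowest Irgm1-KO library (805). Its log2 fold change was -2.26 (SE 0.07, adjusted p = 4.13e-10) against Irgm1-KO and -1.18 (SE 0.07, adjusted p = 6.11e-07) against WT. Trim30b had 1.89, 1.64, 1.94 and 1.89 CPM in Irgm_IFNAR-KO, the lowest of the 3 groups in all 4 libraries, with log2 fold changes of -5.03 (SE 0.20) against Irgm1-KO and -2.25 (SE 0.18) against WT. Trim30c had 8.07, 7.73, 8.50 and 7.22 CPM in Irgm_IFNAR-KO, 132, 127, 122 and 121 CPM in Irgm1-KO and 32.0, 23.7, 32.5 and 34.4 CPM in WT. The 3 groups did not overlap (log2 fold change -1.96, SE 0.11, against WT). Trim30d and Trim34a were at -1.32 (SE 0.13) and -1.19 (SE 0.14) against WT. Trim34b had 3, 1, 2 and 8 counts in Irgm_IFNAR-KO, 16, 23, 35 and 29 in Irgm1-KO and 9, 12, 10 and 19 in WT. Trim5 was back at 14.2, 16.3, 16.4 and 18.1 CPM in Irgm_IFNAR-KO, a range that overlapped that of WT, and its log2 fold change against Irgm1-KO was 0.66 (SE 0.11).

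Trim21 and Trim25 did not follow the Trim30 genes below WT by the test. Trim25 had 215, 191, 210 and 181 CPM in Irgm_IFNAR-KO, with a log2 fold change of -1.48 (SE 0.12) against Irgm1-KO and -0.29 (SE 0.11, not called) against WT. Trim21 had 81.5, 88.0, 86.6 and 82.7 CPM in Irgm_IFNAR-KO, overlapping WT, and was at -0.77 (SE 0.07) against Irgm1-KO and -0.04 (SE 0.07, not called) against WT. Trim14 had 39.7, 39.7, 38.9 and 37.0 CPM in Irgm_IFNAR-KO, below every WT library, and fell against both (-1.25 and -0.46). Of the 15 tested sensing regulators, 6 fell and none rose against Irgm1-KO, and Trim14 alone passed the test against WT. The shares called were 40% and 6.67%, where 42.8% and 12.2% of all genes were called. Trim65 stayed at 28.6, 27.4, 29.6 and 24.7 CPM in Irgm_IFNAR-KO, within the range of Irgm1-KO, and was called in neither comparison. Trim72 had 7, 5, 1 and 2 counts in Irgm_IFNAR-KO, below all 4 Irgm1-KO libraries. Trim46 had 1.29, 0.929, 1.06 and 1.08 CPM in Irgm_IFNAR-KO, all below Irgm1-KO, and its log2 fold change against Irgm1-KO was -1.87 (SE 0.18).

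Of the members that fell without Irgm1, Trim37 was at WT level without IFNAR and Trim59 was not. Trim37 had 20.4, 23.4, 20.7 and 21.7 CPM in Irgm_IFNAR-KO, a range that overlapped WT (log2 fold change 0.74 against Irgm1-KO and -0.08, SE 0.08, against WT). Trim59 had 14.6, 15.9, 16.4 and 14.2 CPM in Irgm_IFNAR-KO, above every Irgm1-KO library and below every WT library (log2 fold change 0.39 against Irgm1-KO and -0.73, SE 0.08, adjusted p = 9.62e-05, against WT). Trim36 was the single member that rose against WT, with 9.88, 9.54, 10.0 and 8.78 CPM in Irgm_IFNAR-KO, 4.80, 4.95, 4.74 and 4.59 CPM in Irgm1-KO and 7.39, 6.80, 8.44 and 7.37 CPM in WT. The groups did not overlap (log2 fold change 0.35, SE 0.08, adjusted p = 0.0143, against WT). Trim24, Trim47, Trim7 and Trim3 rose against Irgm1-KO by 0.67, 0.71, 0.64 and 0.22 on the log2 scale and were not called against WT. Trim2, which carries NHL repeats and is known from neurons, fell against Irgm1-KO by 0.69.

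Some calls of these comparisons rested on single libraries. The call of Trim36 against WT ended without Irgm_IFNAR-KO replicate 1 (adjusted p = 0.0595) or 3 (adjusted p = 0.0629), and then no member rose; without WT replicate 1, 2 rose. That of Trim34b against WT ended without WT replicate 4 or Irgm_IFNAR-KO replicate 1 or 3 (adjusted p from 0.0538 to 0.0573). That of Trim3 against Irgm1-KO ended without any library but Irgm1-KO replicate 1 (adjusted p from 0.0599 to 0.127). With WT replicate 2 and Irgm1-KO replicate 3 both left out, 10 rose and 21 fell against Irgm1-KO, and 2 rose and 11 fell against WT. For these refits too, the share of all genes called was not counted.

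**Figure D4:**
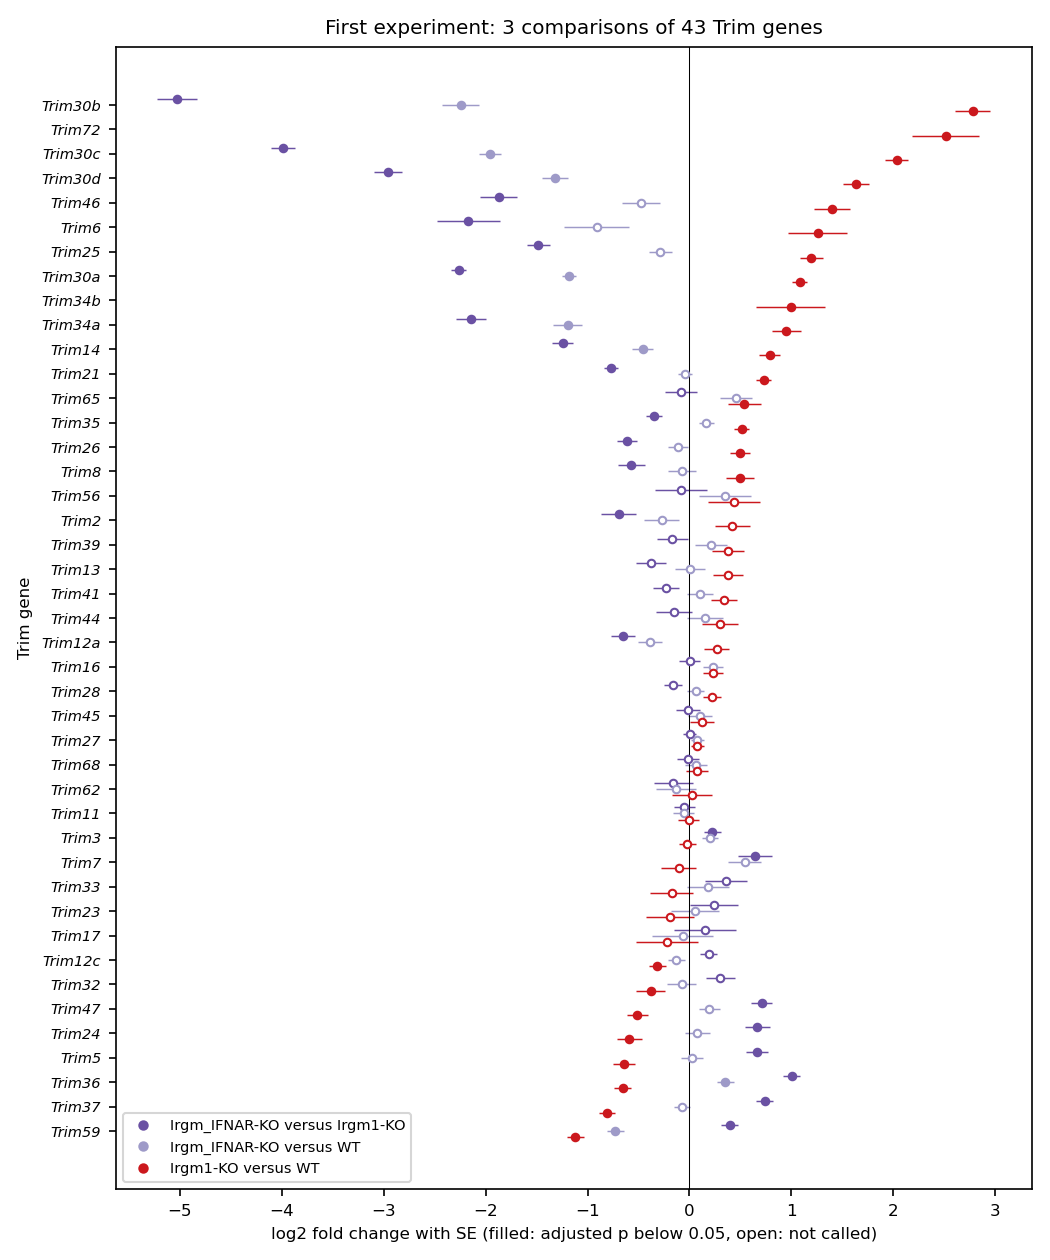
Log2 fold changes with SE of the 43 Trim genes in the 3 comparisons of the first experiment, with filled points for an adjusted p below 0.05; values of Trim72 and Trim34b in Irgm_IFNAR-KO are not drawn because of their low counts. Trim30b spans from -5.03 (Irgm_IFNAR-KO versus Irgm1-KO) to 2.78 (Irgm1-KO versus WT), and Trim37 and Trim5 show the opposite arrangement.

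Fenofibrate lowered Trim30a, Trim30b, Trim30d, Trim34a, Trim14 and Trim21 in both genotypes, by more in Irgm1KO than in WT cells, and raised Trim37 in both. In Irgm1KO_fenofibrate against Irgm1KO_control, 8 of 43 members rose and 19 fell, where 45.7% of all genes were called, 23.5% up and 22.2% down. In WT_fenofibrate against WT_control, 4 rose and 15 fell, where 35% of all genes were called, 18.1% up and 16.9% down. The median log2 fold changes of the members were -0.13 and -0.09, against 0.013 and 0.0165 over all genes. These 2 comparisons share no libraries. They had 10 falls in common (52.6% of those in Irgm1KO and 66.7% of those in WT), namely Trim12a, Trim14, Trim17, Trim21, Trim26, Trim30a, Trim30b, Trim30d, Trim34a and Trim65, and 1 rise, Trim37. The share of all genes called alike in both genotypes was not counted. The genotype comparison in control cells and the drug comparison in Irgm1KO cells share the Irgm1KO_control libraries, so a member's values in them are not independent. Macrophage markers summed to 15300 to 18700 CPM in Irgm1KO_fenofibrate, 10800 to 13000 in Irgm1KO_control, 14300 to 22900 in WT_fenofibrate and 22500 to 31200 in WT_control. Endothelial markers summed to 32.7 to 43.4 CPM in Irgm1KO_fenofibrate, 131 to 224 in Irgm1KO_control, 32.3 to 48.9 in WT_fenofibrate and 32.0 to 46.2 in WT_control. Dendritic cell markers summed to 55.8 to 71.7, 54.8 to 59.0, 8.52 to 24.7 and 27.3 to 45.7 CPM in the same 4 groups, and so were higher in Irgm1KO_control than in WT_control but lower in Irgm1-KO than in WT. Neutrophil markers summed to 0.874 to 2.49, 0.345 to 0.622, 2.18 to 2.97 and 2.31 to 6.24 CPM. The part of these markers in the results was not tested.

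**Figure D5:**
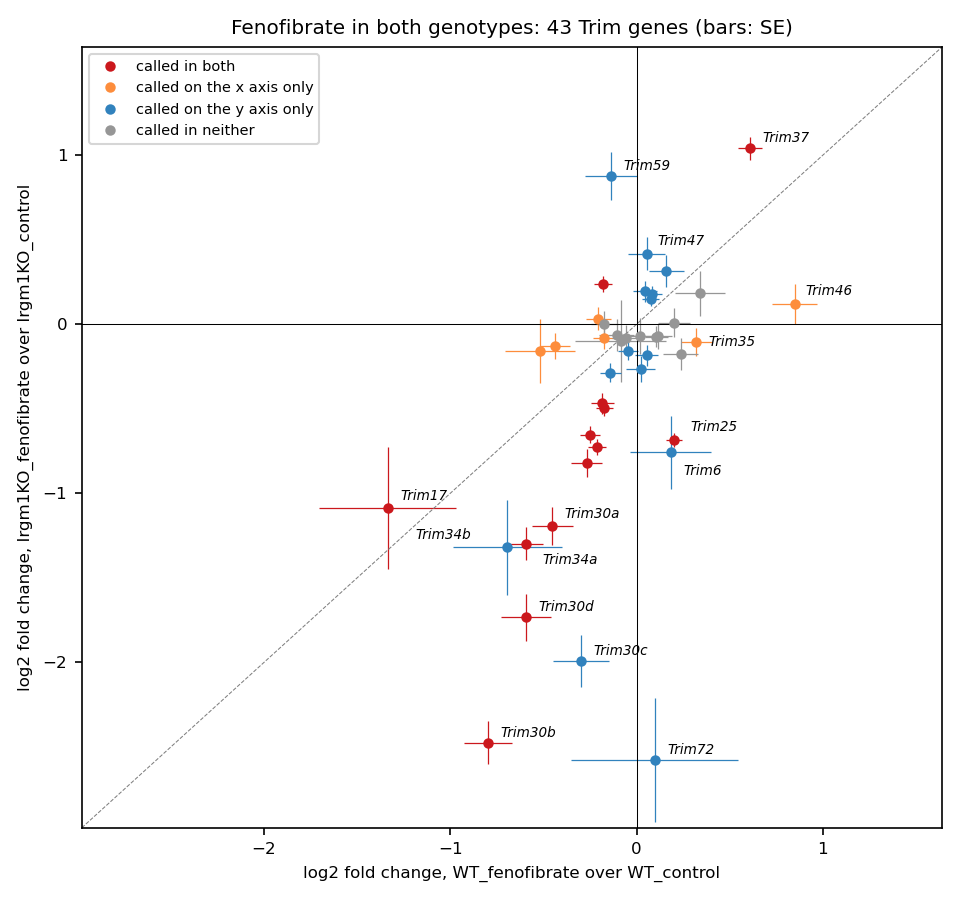
Each point is 1 of 43 Trim genes, with its log2 fold change under fenofibrate in WT (x axis) and in Irgm1KO cells (y axis); bars are SE and the dashed line marks equal values. Trim30b, Trim30c, Trim30d and Trim72 lie far below the line, while Trim37 and Trim59 lie above it.

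In the chromosome 7 cluster 8 of 10 members fell in Irgm1KO cells and 6 in WT cells, and none rose. These were 80% and 60% of the cluster, where 45.7% and 35% of all genes were called. Trim30a had 375, 251, 301 and 352 CPM in Irgm1KO_fenofibrate, less than any Irgm1KO_control library and overlapping WT_control. It had 257, 263, 302 and 225 CPM in WT_fenofibrate, below all 4 WT_control libraries. The log2 fold changes were -1.19 (SE 0.11, adjusted p = 4.14e-07) in Irgm1KO and -0.45 (SE 0.11, adjusted p = 0.00457) in WT. Trim30b had 6.04, 5.46, 4.48 and 5.87 CPM in Irgm1KO_fenofibrate and 2.71, 2.22, 2.71 and 2.12 CPM in WT_fenofibrate, both below their controls without overlap (log2 fold changes -2.48, SE 0.13, and -0.80, SE 0.13). Trim30c was at -1.99 (SE 0.15) in Irgm1KO and at -0.30 (SE 0.15, not called) in WT. With a block for each replicate number, the WT value was -0.31 and was called (adjusted p = 0.00099).

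Trim25 moved in opposite directions in the 2 genotypes. It had 314, 312, 305 and 314 CPM in Irgm1KO_fenofibrate, below all Irgm1KO_control libraries, and 300, 277, 304 and 293 CPM in WT_fenofibrate, above all WT_control libraries. The log2 fold changes were -0.68 (SE 0.04, adjusted p = 6.75e-09) in Irgm1KO and 0.20 (SE 0.04, adjusted p = 0.00144) in WT. Trim21 had 91.1, 81.3, 83.7 and 87.6 CPM in Irgm1KO_fenofibrate and 78.9, 72.2, 77.5 and 74.3 CPM in WT_fenofibrate, each below its control (log2 fold changes -0.73 and -0.21, SE 0.05 each). Trim14 was at -0.82 and -0.27, Trim26 at -0.49 and -0.17, and Trim65 at -0.65 and -0.25 in Irgm1KO and WT, and all were called. Of the 15 sensing regulators 8 fell and 1 (Trim27) rose in Irgm1KO, and 4 fell and 2 (Trim25 and Trim35) rose in WT. The shares called were 60% and 40%, where 45.7% and 35% of all genes were called. Trim56 fell in Irgm1KO (log2 fold change -0.27) and was at 0.02 in WT. Trim72 had 10, 12, 11 and 2 counts in Irgm1KO_fenofibrate, against 37 or more in each Irgm1KO_control library, and 12, 9, 9 and 7 counts in WT_fenofibrate.

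Trim37 rose with fenofibrate in both genotypes. It had 46.6, 39.6, 44.3 and 45.8 CPM in Irgm1KO_fenofibrate, against 20.1, 21.4, 22.7 and 21.6 CPM in Irgm1KO_control, and 45.8, 49.6, 42.0 and 50.8 CPM in WT_fenofibrate, against 30.2, 30.6, 29.3 and 33.4 CPM in WT_control. Neither pair of groups overlapped, and the treated groups overlapped each other (log2 fold changes 1.04, SE 0.07, in Irgm1KO and 0.61, SE 0.07, in WT). Trim59 had 44.0, 26.5, 34.2 and 34.4 CPM in Irgm1KO_fenofibrate, above every Irgm1KO_control library, and 29.8, 32.7, 23.8 and 26.2 CPM in WT_fenofibrate, which overlapped its control (log2 fold changes 0.88, SE 0.14, and -0.14, SE 0.14, not called). Trim46 rose in WT (log2 fold change 0.85, SE 0.12) and was at 0.12 (SE 0.12, not called) in Irgm1KO. Trim47 and Trim32 rose in Irgm1KO by 0.42 and 0.24, while Trim32 fell by 0.18 in WT. Trim17, at 0.44 CPM or less in all libraries of this experiment, fell in both genotypes (log2 fold changes -1.09 and -1.34), and 17.7% of its 50-base windows are shared with histone genes. Trim24 and Trim28, both transcriptional cofactors, rose in Irgm1KO by 0.19 and 0.15. Trim16, which acts at damaged membranes, also rose there (0.31), and Trim39 and Trim41 fell (-0.18 and -0.16). The call of Trim41 was not followed with single libraries left out.

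The difference between the genotypes in the response to fenofibrate was tested directly, as the change in Irgm1KO minus that in WT. It was called for 20 members, 4 above 0 and 16 below 0, where 29.6% of all genes were called, 14.9% above and 14.7% below. Those below 0 included 7 of the 10 cluster members and 7 of the 15 sensing regulators. The differences were -1.68 (SE 0.18) for Trim30b, -1.69 (SE 0.21) for Trim30c, -1.14 (SE 0.19) for Trim30d, -0.74 (SE 0.16) for Trim30a, -0.70 (SE 0.13) for Trim34a and -0.88 (SE 0.06) for Trim25. Those above 0 were Trim59 (1.01, SE 0.20), Trim37 (0.43, SE 0.09), Trim32 (0.42, SE 0.07) and Trim36 (0.31, SE 0.11). Trim21, Trim14, Trim26 and Trim65 were between -0.32 and -0.56, and Trim46 was at -0.73. With the block for replicate number, Trim3 (0.23, adjusted p = 0.0303), Trim39 (-0.24, adjusted p = 0.0309), Trim47 (0.37, adjusted p = 0.0023) and Trim56 (-0.28, adjusted p = 0.0101) were called as well.

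Under fenofibrate, Trim30b, Trim34a, Trim12a, Trim30c, Trim36 and Trim21 were among the members higher in Irgm1KO than in WT cells, and Trim24, Trim33, Trim39 and Trim56 were lower. In Irgm1KO_fenofibrate against WT_fenofibrate, 9 members rose and 4 fell, or 30.2%, where 33.3% of all genes were called, 18.1% up and 15.2% down. The members' share was near that of all genes. The log2 fold change of Trim30b was 1.16, with SE 0.13 and adjusted p = 1.02e-05, and Trim34a (0.45), Trim12a (0.32) and Trim30c (0.50) were higher too, whereas Trim30a (0.29, adjusted p = 0.0546), Trim30d (0.32), Trim25 (0.08) and Trim59 (0.31) were not called. Outside the chromosome 7 cluster, Trim36 (0.31, adjusted p = 0.00679), Trim21 (0.18, adjusted p = 0.00797), Trim14, Trim27 and Trim28 were also called higher. The median log2 fold change was 0.05, against 0.00726 over all genes.

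In the second experiment same-numbered control and treated libraries of a genotype deviated together, so the block is the paired form of the drug comparisons. Under it 7 members rose and 18 fell in WT_fenofibrate against WT_control, with Trim13 (0.20, adjusted p = 0.0172) and Trim68 (0.23, adjusted p = 0.0484) among the rises and Trim8 (-0.14, adjusted p = 0.0256) and Trim33 (-0.17, adjusted p = 0.0301) among the falls. In the 4 WT libraries with Xist above 10 CPM, 2 a group, 4 rose and 3 fell, and in all such libraries of Irgm1KO 7 rose and 15 fell. In Irgm1KO_fenofibrate against WT_fenofibrate those libraries gave 4 rises and 2 falls. In the WT libraries with Xist above 10 CPM, Trim30a (adjusted p = 0.133), Trim30d, Trim14, Trim21, Trim26 and Trim65 were not called with fenofibrate (adjusted p from 0.0774 to 0.177). The choice of these libraries was made after the data were seen. The shares of all genes called with the block or in these libraries were not counted, so these member counts have no background to compare with.

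Calls that rested on single libraries were mostly small changes. In WT, Trim12a ended without WT_control replicate 3 or 4 or WT_fenofibrate replicate 2 or 4, Trim12c without WT_control replicate 1, 2 or 3 or WT_fenofibrate replicate 1 or 4, and Trim7 without WT_control replicate 1 or 3 or WT_fenofibrate replicate 1, 2 or 4 (adjusted p from 0.0574 to 0.142). Trim14 ended without WT_control replicate 3 or WT_fenofibrate replicate 2 or 4, and Trim3 without WT_control replicate 3 or WT_fenofibrate replicate 4 (adjusted p from 0.0561 to 0.0793). In Irgm1KO, Trim28 ended without Irgm1KO_control replicate 2 (adjusted p = 0.0747), Trim24 without Irgm1KO_control replicate 2 or 4 or Irgm1KO_fenofibrate replicate 4, Trim39 without Irgm1KO_control replicate 3 or Irgm1KO_fenofibrate replicate 1 or 4, and Trim17 without Irgm1KO_control replicate 1 or Irgm1KO_fenofibrate replicate 2 or 3 (adjusted p from 0.0558 to 0.0936). Of the differences between genotypes, Trim36 ended without 13 of the 16 libraries taken singly, Trim6 without 7 and Trim68 without 5 (adjusted p from 0.0506 to 0.096), and Trim12a without WT_fenofibrate replicate 1 (adjusted p = 0.0506). Under fenofibrate, the call of Trim30c between genotypes ended without WT_fenofibrate replicate 2 or 4 or Irgm1KO_fenofibrate replicate 1 or 4 (adjusted p from 0.0507 to 0.0621). That of Trim14 ended without replicate 1, 2 or 4 of either group (adjusted p from 0.0741 to 0.14). Trim24 ended without WT_fenofibrate replicate 1 or 3 or Irgm1KO_fenofibrate replicate 2 or 3, Trim33 without replicate 2 or 3 of either group, and Trim27 without WT_fenofibrate replicate 2 or 3 or Irgm1KO_fenofibrate replicate 2 (adjusted p from 0.05 to 0.0973). Without replicate 3 of either group, 2 members fell.

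Of 7 genes of the same protein family with other names, 5 were tested in the first experiment. There 3 rose and none fell in Irgm1-KO (19.8% and 20.7% of all genes). In the second, 6 were tested, of which 2 rose and 2 fell in Irgm1KO_control (27.3% and 26.1% of all genes). Rnf135, also known as Riplet, which activates RIG-I, had 18.0, 17.5, 16.8 and 19.0 CPM in Irgm_IFNAR-KO, 72.1, 72.6, 92.6 and 74.5 CPM in Irgm1-KO and 25.9, 30.8, 30.8 and 30.6 CPM in WT. No libraries of the 3 groups overlapped. Pml, the scaffold of nuclear bodies, was at 82.5 to 108 CPM in Irgm_IFNAR-KO, 183 to 268 in Irgm1-KO and 109 to 190 in WT, and was called in all 3 comparisons, with overlap between Irgm1-KO and WT. Mefv, which encodes the inflammasome protein pyrin, rose in Irgm1-KO (log2 fold change 1.01) and in Irgm_IFNAR-KO (1.16) against WT, and was not called between Irgm_IFNAR-KO and Irgm1-KO. In the second experiment Mefv was at -0.55 (SE 0.33, not called) without Irgm1 and fell with fenofibrate in both genotypes. Mid1, a microtubule-associated ligase, was at 2.66 to 5.32 CPM in Irgm_IFNAR-KO, 23.2 to 52.4 in Irgm1-KO and 13.7 to 31.5 in WT, and fell in Irgm_IFNAR-KO against both. Its relative Mid2 was barely detected, at 0.0454 CPM or less in the Irgm1KO groups, against 0.0584 to 0.308 in the WT groups, and was called lower in both genotype comparisons and higher with fenofibrate in both genotypes. Bspry, at 0.934 CPM or less in all libraries, fell in Irgm1KO_control (log2 fold change -1.08) and rose with fenofibrate in Irgm1KO (0.64).

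Of 20 genes that work with Trim proteins in sensing, 12 rose and none fell in Irgm1-KO (19.8% and 20.7% of all genes), and 12 rose and 2, Tab2 and Nlrp3, fell in Irgm1KO_control (27.3% and 26.1%). In Irgm_IFNAR-KO against Irgm1-KO 11 fell and none rose (21.3% and 21.5%). With fenofibrate 18 fell and none rose in Irgm1KO (22.2% and 23.5%), and 12 fell and 2, Ikbkg and Zc3hav1, rose in WT (16.9% and 18.1%). Rigi, which encodes the RIG-I sensor that Trim25 and Rnf135 modify, was at 39.1 to 49.2 CPM in Irgm_IFNAR-KO, 358 to 479 in Irgm1-KO and 93.7 to 163 in WT. Mavs, its adaptor, changed less, with log2 fold changes of 0.59 and 0.38 without Irgm1 in the first and second experiments. Sting1 was not called in Irgm1-KO against WT, rose by 0.30 in Irgm1KO_control, and fell with fenofibrate by 0.72 in Irgm1KO and by 0.84 in WT. Of 20 core interferon-stimulated genes, 19 and 20 rose without Irgm1 in the first and second experiments (medians 1.97 and 1.90), all 20 fell in Irgm_IFNAR-KO against Irgm1-KO (median -4.25), and all 20 fell with fenofibrate in Irgm1KO (median -1.53), while in WT 10 fell and 2, Rsad2 and Bst2, rose (median -0.28). The shares of all genes called in these comparisons are those just given.

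The 25 members not tested had no row in the first table and few or no counts in the second. In the 16 libraries there, 10 of them had no count and 10 had at most 3 in any library, among them Trim38, a regulator of TLR adaptors, which had counts in 8 libraries. The other 5 were Trim29, Trim66, Trim69, Trim55 and Trim43a, with at most 12 counts in a library, and Trim66, the fourth of the transcriptional cofactors, had at least 1 count in all 16. At totals of 82.4 to 121 M a count of 0 allows up to 3 counts, so the 10 members with no count were not detectable at this depth. The sources used here do not give the strand setting of the counting, so members with an antisense neighbour in their exons, such as Trim14, Trim41, Trim46 and Trim35, may hold reads of that neighbour.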

How the data were processed

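Messenger RNA of mouse bone marrow-derived macrophages was measured in 28 libraries, 12 in the first and 16 in the second experiment. The authors deposited whole-number read counts per Ensembl gene, 1 table per experiment. The submitters' processing notes name fastp, STAR, DESeq2 and GRCm39 without versions; counting tool, annotation and strand setting: not given in the sources used here. The first table holds genes with at least 10 counts in some library, the second all genes. Groups were taken from the labels. Symbols were matched by Ensembl ID for 99.6% and 91.2% of rows.

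Each experiment was fitted apart, over all its groups, with edgeR 4.0.16 (R 4.3.3): TMM scaling, filterByExpr with a count minimum of 10, and the robust quasi-likelihood test. P-values were adjusted by Benjamini-Hochberg over the 13998 and 15429 genes tested, with a threshold of 0.05; SE is the absolute log2 fold change divided by the square root of F. CPM use TMM-scaled library sizes. The fit was tested on simulated data. Exon lengths and shared 50-base windows come from GENCODE M21 and promoters from RefSeq GRCm38.p6, an older build than that of the counts.

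The Trim members and the gene lists were chosen with earlier results of these data known. Named with values are the members listed by name for their roles, in each comparison up to 8 called rises and 8 called falls of the largest size, and all members called in the interaction. Values per library are given for those the results turn on. Same-numbered libraries of control and treated cells deviated together (correlations 0.38 to 0.488 in WT and 0.261 to 0.371 in Irgm1KO), so the replicate numbers of the labels were taken to pair them within a genotype; in the first experiment correlations ran from -0.479 to 0.519 and the numbers pair nothing. Alternatives were DESeq2 1.42.0 (Wald test, or its size factors), no low-count filter, the largest gene left out, only the groups compared, a replicate block, a log2 Xist covariate and each library left out in turn. After seeing the data, a fit without WT replicate 2 and Irgm1-KO replicate 3 and a fit of the 10 second-experiment libraries with Xist above 10 CPM were added.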

Additional observations from a re-analysis of the deposited data

Results flagged for a closer look

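Libraries that stood apart from the other 3 of their group, by a gap large against the group's range, were found in 23 of 259 gene and group combinations; chance gives about 1 in 20. Irgm1-KO replicate 3 was high for Trim12a (74.4 CPM), Trim30b (79.8) and Trim34a (138.0) and low for Trim25 (463.0), Trim35 (96.8), Trim39 (7.5) and Trim8 (95.1). WT replicate 2 stood apart for Trim12c (75.8), Trim24 (8.28) and Trim6 (0.5), and WT replicate 1 for Trim35 (80.9) and Trim47 (18.6). In Irgm_IFNAR-KO these were Trim12c in replicate 4 (70.0), Trim30b in replicate 2 (1.64) and Trim35 in replicate 1 (80.2). In WT_control they were Trim16 in replicate 1 (11.9), Trim27 in replicate 4 (36.3), Trim35 in replicate 2 (91.4) and Trim8 in replicate 3 (82.5). In Irgm1KO_control they were Trim2 in replicate 2 (8.71), Trim47 in replicate 1 (13.5) and Trim68 in replicate 4 (3.4), and in Irgm1KO_fenofibrate Trim72 in replicate 4 (0.0227).

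The response to fenofibrate differed between the genotypes for 20 members by the interaction test of edgeR. The log2 difference, Irgm1KO minus WT, was -2.67 for Trim72, -1.69 for Trim30c, -1.68 for Trim30b, -1.14 for Trim30d, -0.94 for Trim6, -0.88 for Trim25, -0.74 for Trim30a, -0.73 for Trim46, -0.7 for Trim34a, -0.56 for Trim14, -0.51 for Trim21, -0.42 for Trim35, -0.41 for Trim68, -0.4 for Trim65, -0.32 for Trim26 and -0.29 for Trim12a. It was 1.01 for Trim59, 0.43 for Trim37, 0.42 for Trim32 and 0.31 for Trim36. The adjusted p lay between 1.05e-07 (Trim25) and 0.0461 (Trim36).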

How the results depend on the processing

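No named member that was called in the main fit or in an alternative changed direction between them. Direction was not compared for genes called in neither, and members not named were not followed singly. Leaving out each library in turn, member counts ranged from 15 to 20 rises and 7 to 8 falls in Irgm1-KO versus WT, 7 to 8 and 17 to 19 in Irgm_IFNAR-KO versus Irgm1-KO, 0 to 2 and 7 to 10 in Irgm_IFNAR-KO versus WT, 18 to 20 and 6 in Irgm1KO_control versus WT_control, 4 to 6 and 10 to 16 in WT_fenofibrate versus WT_control, 6 to 8 and 17 to 19 in Irgm1KO_fenofibrate versus Irgm1KO_control, 6 to 10 and 2 to 5 in Irgm1KO_fenofibrate versus WT_fenofibrate, and 3 to 5 and 14 to 20 for the interaction. With log2 Xist as a covariate, 25 rose in Irgm1-KO versus WT, and 4 rose and 13 fell in Irgm_IFNAR-KO versus WT. In Irgm_IFNAR-KO versus WT, 2 rose by DESeq2's Wald test, and 2 without WT replicate 2 and Irgm1-KO replicate 3. With the replicate block, 7 rose in WT_fenofibrate versus WT_control, against 4 without it. In the first experiment, where numbers pair nothing, the block changed the calls of Trim13 (adjusted p = 0.0473) and Trim32 (adjusted p = 0.0673) in Irgm1-KO versus WT. In Xist-high libraries only, a choice made after seeing the data, 3 fell in WT_fenofibrate versus WT_control, and 4 rose and 2 fell in Irgm1KO_fenofibrate versus WT_fenofibrate; fitting only the groups compared gave 2 falls there. The other 116 of 126 member counts under these settings stayed within 1.5 times. The share of all genes called was not counted under any of these settings or with a library left out. A shift in a member count therefore has no background to compare with. Of 2331 values of named members under settings other than leaving out a library, 2188 stayed on the same side of the threshold, 70 lost the call and 73 gained one. The cause of these shifts was not tested, beyond the smaller number of libraries in some fits. Genes under about 1 CPM, such as Trim72, Trim34b, Trim17 and Trim6, are limited by depth.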

Other observations

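Trim2 was lower in the WT libraries of the second experiment with little Xist than in the others. In the Xist-low replicates 2 and 4 it had 3.41 and 5.42 CPM with fenofibrate and 3.46 and 4.92 CPM without it. In the Xist-high replicates 1 and 3 it had 6.51 to 7.40 CPM with fenofibrate and 7.56 to 8.17 CPM without it. In Irgm1KO the single Xist-low library of each treatment had 6.28 CPM with fenofibrate and 6.54 CPM without it. These values were noticed after the data were seen and were not tested.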
